A study of Mus musculus with 12 samples.

Results

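Genes for 10 G protein-coupled receptors, for metabolites, adenosine, R-spondins or no agreed ligand, were followed in interscapular brown adipose tissue, the heat-producing fat between the shoulder blades of rodents. They were Gpr3, Hcar1, Hcar2, Ffar2, Ffar4, Sucnr1, Adora1, Adora2a, Lgr4 and Lgr6, 10 of 54356 genes in the files, and all 10 were among the 13876 genes with enough reads to be tested. The 10 were picked by name with their cold and ctrl levels already known, so those levels are given as a description and carry no test. The animals were 12 male C57BL/6N mice aged 20 weeks, 6 labelled cold (mice 4, 7, 11, 12, 15 and 16) and 6 labelled ctrl (mice 2, 5, 6, 9, 10 and 14). All were wild type. The cold treatment was 24 h of single housing at 4 °C. The same treatment text is attached to the ctrl animals, whose colony was kept at 22 to 24 °C, and it is read here as meant for the cold animals. Whether ctrl animals were housed singly is not stated, so single housing and cold cannot be told apart. The labels list 6 cold animals, although the series text states n = 3. They also give brown fat as the tissue, although eWAT appears in the extraction text. In both cases the sample labels were used. Each library came from 1 animal, and the p-values below weigh the difference between cold and ctrl against the spread between animals.

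These receptors let a fat cell read its own metabolites and its surroundings. Receptors that couple to Gi proteins lower cAMP and restrain lipolysis, whereas receptors that couple to Gs raise cAMP, the messenger through which noradrenaline starts heat production. HCAR1 senses lactate and HCAR2 senses 3-hydroxybutyrate and the drug niacin, and both couple to Gi. FFAR2 senses acetate and other short-chain fatty acids, FFAR4 long-chain fatty acids, and SUCNR1 succinate. ADORA1 is the Gi-coupled and ADORA2A the Gs-coupled receptor for adenosine. GPR3 is an orphan receptor that stimulates Gs without a known ligand. LGR4 and LGR6 have large extracellular domains, bind R-spondins and strengthen Wnt signalling.

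The labelled tissue was checked against its markers. All 10 brown adipocyte markers on the list used were detected, with summed levels of 13960 to 17520 CPM (counts scaled to TMM library size) in cold and 9313 to 15330 CPM in ctrl libraries. Libraries held 16.0 to 31.4 M estimated reads. Ucp1, the uncoupling protein of brown fat mitochondria, averaged 10070 ± 769 CPM in cold and 8629 ± 1588 CPM in ctrl, and Ppargc1a, a coactivator of mitochondrial genes, 316 ± 73.3 CPM in cold and 53.7 ± 8.60 CPM in ctrl (SD, n = 6 each). The edgeR quasi-likelihood test, adjusted by Benjamini and Hochberg's method to a threshold of 0.05, called 31.6% of all 13876 genes, 2246 of them higher in cold and 2134 lower. With libraries scaled by their totals, 2895 were higher and 1409 lower, the share of higher genes among those called was 67.3% against 51.3%, and the median log2 fold change of all genes was 0.08 against -0.01.

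The upstream sequences of 4 members are printed as a description. Of the 10 members, 8 were matched in the RefSeq promoter table (GRCm38.p6); Hcar2 and Adora2a were not. Each runs 5′ to 3′ on the strand of the gene and ends at the base before the first annotated transcript start. Capitals mark matches to the letters searched on both strands: TGACGTCA (the cAMP response element), its core TGACG, the nuclear receptor core AGGTCA, 2 such cores with 1 base between them (AGGTCANAGGTCA), the E-box CACGTG and TATAAA. The full cAMP response element contains its core, and the double nuclear receptor site contains the single one.
Gpr3, chr4:133212537-133212786, minus strand: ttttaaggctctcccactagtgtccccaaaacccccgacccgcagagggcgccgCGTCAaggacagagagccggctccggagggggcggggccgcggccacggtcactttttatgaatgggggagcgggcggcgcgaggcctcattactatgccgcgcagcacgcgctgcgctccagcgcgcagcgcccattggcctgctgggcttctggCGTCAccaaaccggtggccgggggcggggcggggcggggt
Hcar1, chr5:123880021-123880253, minus strand: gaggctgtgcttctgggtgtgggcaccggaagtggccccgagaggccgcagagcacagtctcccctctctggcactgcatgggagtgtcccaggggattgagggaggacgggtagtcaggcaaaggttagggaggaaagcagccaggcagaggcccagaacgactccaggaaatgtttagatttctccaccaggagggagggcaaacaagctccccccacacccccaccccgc
Ffar4, chr19:38096829-38097070, plus strand: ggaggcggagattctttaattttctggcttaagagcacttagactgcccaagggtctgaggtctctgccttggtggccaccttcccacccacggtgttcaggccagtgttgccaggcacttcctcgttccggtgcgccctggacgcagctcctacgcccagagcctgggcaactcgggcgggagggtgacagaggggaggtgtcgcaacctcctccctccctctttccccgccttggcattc
Lgr6, chr1:135105277-135105526, minus strand: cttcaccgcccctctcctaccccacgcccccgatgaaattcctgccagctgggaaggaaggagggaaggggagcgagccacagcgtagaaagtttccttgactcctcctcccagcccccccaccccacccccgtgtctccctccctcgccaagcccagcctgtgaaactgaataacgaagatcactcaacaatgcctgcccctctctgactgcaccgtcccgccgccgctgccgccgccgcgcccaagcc
The Gpr3 sequence held the core TGACG in 2 places, both on the opposite strand (printed as CGTCA), 196 to 192 and 40 to 36 bases before the start. Of all 32851 promoter windows of 250 bases, 17.8% held that core and 1.55% the full element. None of the letters searched occurred in the Hcar1, Ffar4 or Lgr6 sequences, nor in those of Sucnr1, Adora1 and Lgr4. The outermost of 4 Ffar2 windows held 1 nuclear receptor core, found in 14% of all windows, and 1 E-box, found in 6.02%. The double nuclear receptor site was in 0.0335% and TATAAA in 12.4% of windows. The Gpr3 sequence had 70.8% G and C and 29 CG pairs, against 62.7% and 6 in Hcar1, 62.0% and 11 in Ffar4 and 65.2% and 16 in Lgr6. The median over all windows was 52.4% G and C. A match of letters is a description and not a binding site, and no match says only that these letters are not in this window.

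**Figure D1:**
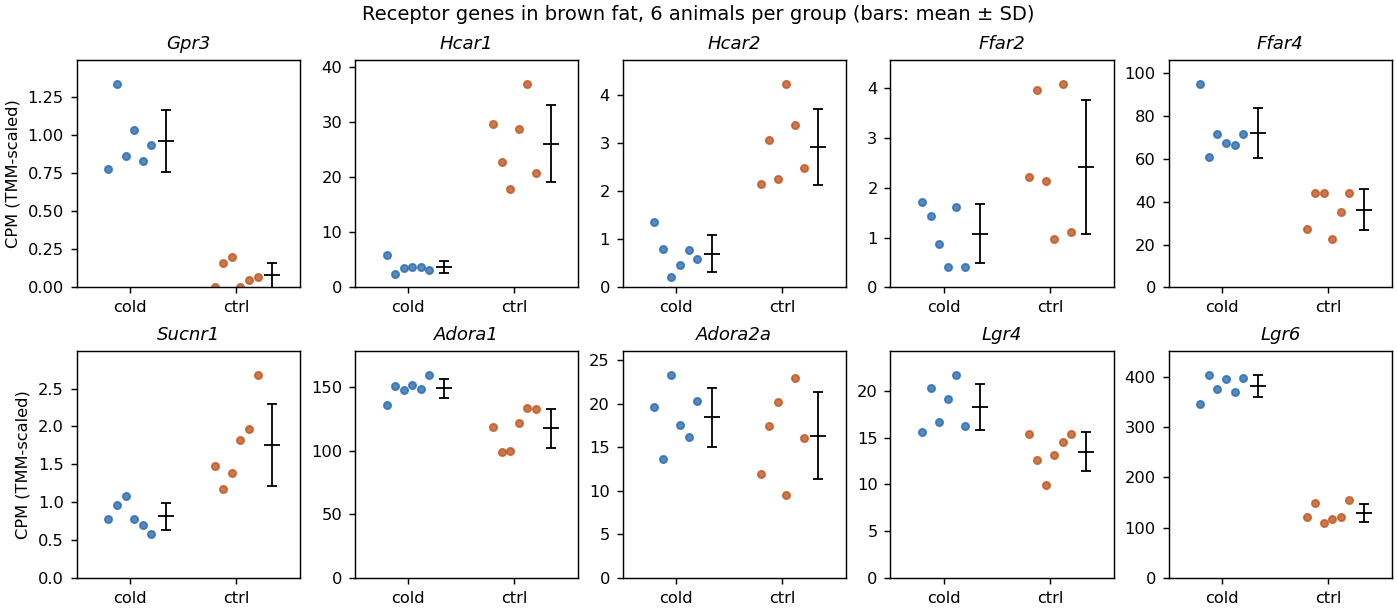
CPM of the 10 receptor genes in each library, cold to the left of ctrl; every point is 1 animal and the bar is the mean ± SD of 6 animals. The cold and ctrl points do not overlap for Gpr3, Hcar1, Hcar2, Ffar4, Sucnr1, Adora1, Lgr4 and Lgr6, and overlap for Ffar2 and Adora2a.

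Gpr3 RNA was scarce, and most of its reads came from cold animals. Its gene lies on chromosome 4 at 133209340 to 133212536 (GRCm38, GENCODE M21, as for all gene positions here). The cold libraries 4, 7, 11, 12, 15 and 16 held 24, 25, 16, 20, 19 and 16 reads, and the ctrl libraries 2, 5, 6, 9, 10 and 14 held 0, 4, 5, 0, 1 and 1 reads. Every cold library stood above every ctrl library. In CPM the mean was 0.961 ± 0.202 in cold and 0.0792 ± 0.0831 in ctrl, a ratio of 12.1 and a log2 fold change of 3.33 ± 0.47 (SE). The 0 reads in ctrl 2 and ctrl 9 allow up to 0.185 and 0.171 CPM, the level of 3 reads, which covers counting error only. The gene entered the test through its cold libraries, since 6 of 6 cold and 0 of 6 ctrl libraries had at least 10 reads, and a gene that enters that way has to differ. The single-exon transcript Gpr3-202 held 107 of the 120 cold reads and all 11 ctrl reads, while the spliced Gpr3-201 had 13 reads in 4 cold libraries and none in ctrl. The first bases of Gpr3 overlap Cd164l2 on the opposite strand, and 115 of 2683 distinct 50-base words of its transcripts recur there. Cd164l2 had 284 reads over the 12 libraries against 131 for Gpr3. The libraries were strand-specific, but the sources used here do not give the strand setting of the counting.

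Both hydroxycarboxylic acid receptors were lower in cold. Hcar1 had 5.91, 2.50, 3.45, 3.61, 3.63 and 3.21 CPM in the cold libraries (mice 4 to 16 in order), against 29.6, 22.7, 17.8, 28.75, 36.8 and 20.8 CPM in the ctrl libraries (mice 2 to 14). The lowest ctrl value was more than 2 times the highest cold value, which belonged to mouse 4. The means were 3.72 ± 1.15 CPM in cold and 26.1 ± 6.95 CPM in ctrl, so Hcar1 was 7.01-fold lower in cold by the ratio of means. Hcar2 ran from 0.216 over a median of 0.685 to 1.36 CPM in cold and from 2.16 over 2.78 to 4.22 CPM in ctrl. Its 98 cold and 347 ctrl reads gave means of 0.701 ± 0.388 CPM in cold and 2.93 ± 0.792 CPM in ctrl (log2 fold change -2.01 ± 0.32). At least 10 Hcar2 reads were found in 4 of 6 cold and 6 of 6 ctrl libraries, so its cold libraries alone would not have carried it into the test. The 2 genes are neighbours on the same strand of chromosome 5, Hcar2 at 123863570 to 123865499 and Hcar1 at 123876736 to 123880020, with 11.2 kb and no other gene between them. Each has 1 annotated transcript of 1 exon, and no 50-base word of either occurs in a transcript of another gene, so no exact read of that length fits both.

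Sucnr1 and Ffar2 were both sparse, with 103 cold and 200 ctrl reads for Sucnr1 and 148 cold and 303 ctrl reads for Ffar2. Sucnr1 (chromosome 3 at 60081869 to 60087566) ran from 0.583 over a median of 0.775 to 1.08 CPM in cold and from 1.17 over 1.65 to 2.68 CPM in ctrl. The gap between the highest cold and the lowest ctrl library was smaller than the SD of either group, and the log2 fold change was -1.09 ± 0.25. Ffar2 (chromosome 7 at 30818348 to 30823775) ran from 0.408 over 1.15 to 1.71 CPM in cold and from 0.970 over 2.18 to 4.07 CPM in ctrl, and the groups overlapped. Its log2 fold change was -1.15 ± 0.43, with a coefficient of variation (CV, SD over mean) of 55.2% in cold and 55.8% in ctrl. At least 10 Ffar2 reads were found in 4 of 6 cold and 6 of 6 ctrl libraries, so its cold libraries alone would not have carried it into the test. Reads of Ffar2 were spread over 6 annotated transcripts. Ffar2-202 held on average 41.1 ± 36.05% of them in cold and 56.5 ± 30.2% in ctrl, and Ffar2-201 39.01 ± 39.1% in cold and 24.8 ± 35.01% in ctrl (SD, n = 6 each). In single libraries these shares reached from 0 to 88.0% and from 0 to 100% in cold, so the estimates do not say which of the 2 was used. Of 2796 Ffar2 words of 50 bases, 9 occur on the same strand in transcripts of 88 other genes. On the opposite strand 9 occur in transcripts of 100 other genes.

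Ffar4 was the more abundant fatty acid receptor per kb of transcript and was higher in cold. It lies on chromosome 19 at 38097071 to 38114263. Its level was 94.7, 60.8, 71.7, 67.2, 66.6 and 71.7 CPM in the cold libraries (mice 4 to 16), against 27.2, 44.1, 44.1, 22.4, 35 and 44.02 CPM in the ctrl libraries (mice 2 to 14). The lowest cold library, mouse 7, was above all ctrl libraries. The means of 72.1 ± 11.8 CPM in cold and 36.2 ± 9.59 CPM in ctrl gave a log2 fold change of 1.00 ± 0.17. All reads fell on the single annotated transcript of 3 exons.

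The adenosine receptors differed less between the groups than the members above. Adora1 (chromosome 1 at 134199223 to 134235431) ran from 136 over a median of 149.8 to 160 CPM in cold and from 99.4 over 120.5 to 134 CPM in ctrl. The groups came close but did not overlap, and the log2 fold change was 0.34 ± 0.09. Adora2a (chromosome 10 at 75316877 to 75334784) ran from 13.7 over 18.6 to 23.3 CPM in cold and from 9.53 over 16.8 to 22.9 CPM in ctrl, with overlapping groups and a log2 fold change of 0.17 ± 0.19. Mice 2 and 9 had the lowest ctrl levels of Adora2a, 11.9 and 9.53 CPM, and also the lowest ctrl levels of Ffar4. Among the transcripts of Adora1, Adora1-202 held 66.7 ± 7.86% of reads in cold and 64.8 ± 10.3% in ctrl, and the 2-exon Adora1-201 held 27.5 ± 5.50% in cold and 21.7 ± 6.01% in ctrl (SD, n = 6 each). Those shares overlapped between the groups. The end of Adora1 overlaps Mybph on the opposite strand, which had 159 reads in all against 32626 for Adora1, and 1021 of 5871 Adora1 words recur there.

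Lgr6 was 2.96-fold higher in cold than in ctrl by the ratio of means. It lies on chromosome 1 at 134983301 to 135105276. It had 346, 403, 376, 395, 368 and 396 CPM in the cold libraries (mice 4 to 16), against 122, 149, 109.5, 117, 120.3 and 154 CPM in the ctrl libraries (mice 2 to 14). The lowest cold library held more than 2 times the highest ctrl library. The means of 381 ± 21.4 CPM in cold and 129 ± 18.4 CPM in ctrl gave a log2 fold change of 1.56 ± 0.09, with CVs of 5.63% in cold and 14.3% in ctrl. Its paralog Lgr4 (chromosome 2 at 109917647 to 110014257) ran from 15.6 over 17.9 to 21.7 CPM in cold and from 9.90 over 13.8 to 15.35 CPM in ctrl (log2 fold change 0.44 ± 0.12). The lowest cold library, mouse 4, was just above the highest ctrl libraries, mice 2 and 14. The 18-exon transcript Lgr6-201 carried 96.8 ± 1.83% of Lgr6 reads in cold and 98.2 ± 2.17% in ctrl, and the 13-exon Lgr6-202 carried 1412 reads in cold and 279 in ctrl. For Lgr4, the 17-exon Lgr4-202 was given reads in 1 cold and 2 ctrl libraries and none elsewhere.

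In all, 5 members were called higher (Gpr3, Ffar4, Adora1, Lgr4 and Lgr6) and 3 lower (Hcar1, Hcar2 and Sucnr1) in the fit of the whole table, in which 31.6% of genes were called. For those same 8 every cold library lay on 1 side of every ctrl library, against 16.3% of all genes tested (8.92% higher and 7.37% lower in cold). Nothing is read from these counts, because the members were picked with the contrast in view. Gpr3, counted in both, entered the test only through its cold libraries and had to differ. DESeq2 and the fit with macrophage markers as a covariate also called Ffar2 (log2 fold change -1.15 and -1.68), as did leaving out cold 4, cold 15, ctrl 9 or ctrl 14. With the macrophage covariate Lgr4 was no longer called (log2 fold change 0.33). Every member kept its sign under all alternatives run.

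**Figure D2:**
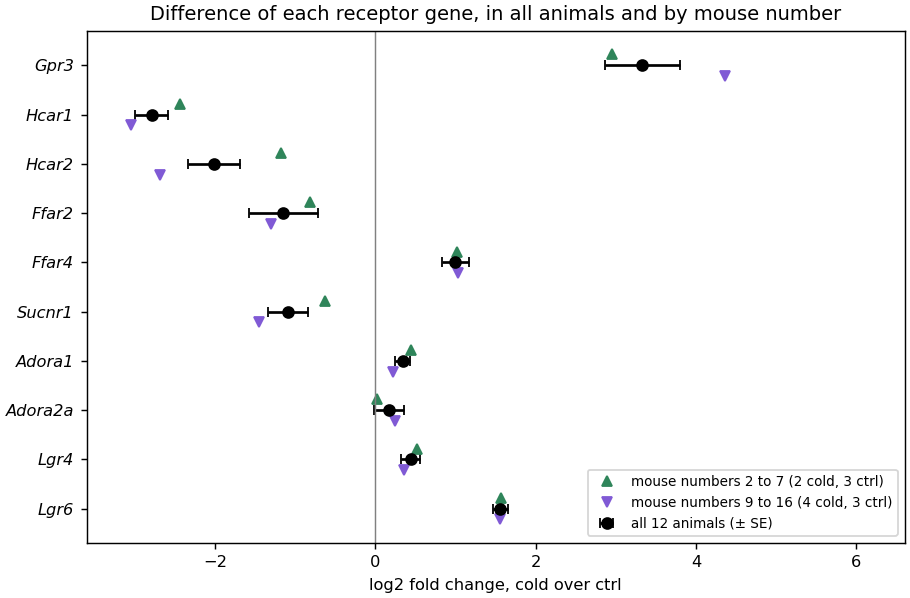
Log2 fold change of each receptor gene, cold over ctrl. Black points are all 12 animals ± SE, upward triangles mice 2 to 7 (2 cold, 3 ctrl) and downward triangles mice 9 to 16 (4 cold, 3 ctrl). Lgr6 and Ffar4 lie at nearly the same place in all 3, whereas Hcar2 and Sucnr1 lie farther from 0 in mice 9 to 16.

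The libraries fall into low and high mouse numbers, which earlier results of these data had placed apart. The labels name no batch, and what the numbers stand for is not known. The log2 fold change of Lgr6 was 1.57 in mice 2 to 7 and 1.55 in mice 9 to 16, and that of Ffar4 was 1.02 and 1.03. Hcar1 gave -2.43 in mice 2 to 7 and -3.05 in mice 9 to 16, and Gpr3 2.95 and 4.36. The Gpr3 value of 4.36 rests on ctrl libraries with 0, 1 and 1 reads, so its size is uncertain. Hcar2 gave -1.18 in mice 2 to 7 and -2.68 in mice 9 to 16, and Sucnr1 -0.63 and -1.45. Mice 2 to 7 held only 2 cold animals, and the difference between the 2 sets of animals was not tested.

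**Figure D3:**
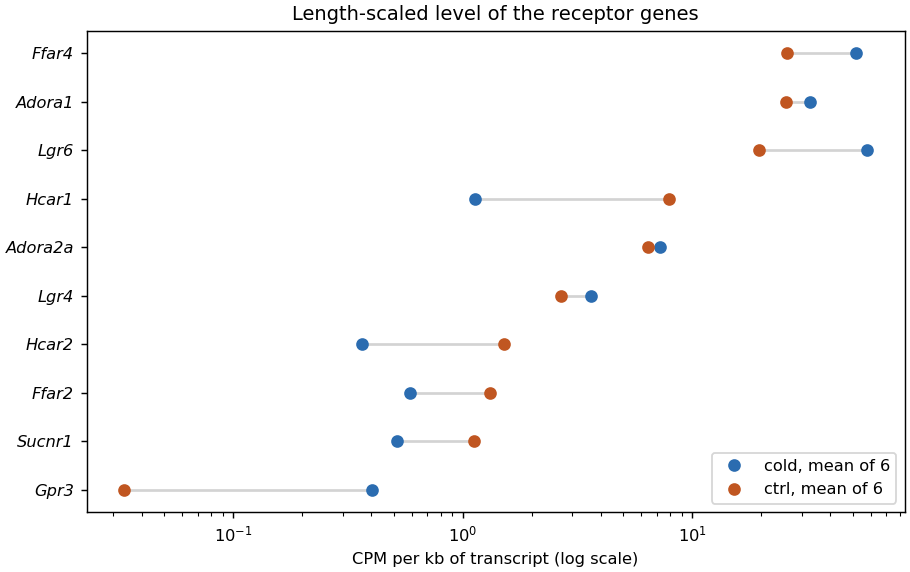
Mean level of each receptor gene per kb of transcript on a log axis, cold and ctrl joined by a grey line (means of 6 animals each). Lgr6, Ffar4 and Adora1 lead in both groups, Hcar1 ranks 6 in cold and 4 in ctrl, and Gpr3 is the lowest in ctrl.

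For comparison between genes, levels were divided by transcript length. In cold the order of CPM per kb was Lgr6 at 57.9 ± 3.26, Ffar4 at 51.5 ± 8.41 and Adora1 at 32.4 ± 1.69 (SD, n = 6). Lgr6 and Ffar4 did not differ beyond that spread, and with effective lengths Ffar4 came first, at 67.7 against 58.8 for Lgr6. In ctrl Ffar4 at 25.8 ± 6.85 and Adora1 at 25.6 ± 3.35 could not be told apart, and Lgr6 followed at 19.6 ± 2.80 CPM per kb. Hcar1 at 1.13 ± 0.351 CPM per kb in cold stood below Adora2a (7.24 ± 1.33) and Lgr4 (3.62 ± 0.487), whereas in ctrl it stood at 7.94 ± 2.12, above Lgr4 (2.67 ± 0.413) and within the spread of Adora2a (6.42 ± 1.97). With effective lengths Lgr4 stood at 4.88 in cold and 3.60 in ctrl and Sucnr1 at 0.743 in cold and 1.603 in ctrl. At the low end, Ffar2, Sucnr1, Gpr3 and Hcar2 lay between 0.363 and 0.587 CPM per kb in cold, with each next to its neighbour within the SD. In ctrl Hcar2, Ffar2 and Sucnr1 lay between 1.11 and 1.52 CPM per kb and overlapped, and Gpr3 lay apart at 0.0333 ± 0.0349.

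Deviations from the group means of log2 CPM were compared with those of 10066 genes across the 12 libraries, as a description of these libraries. All points share library depth and scaling, and the highest of so many values is large by construction. The closest gene to Hcar1 was Ngrn (r = 0.978), that to Ffar4 was Phkg2 (r = 0.941) followed by Ackr3 (r = 0.916), and that to Adora1 was Dnajc28 (r = 0.930). Lgr6 and Ffar2 had the weakest best matches, Ptgr2 (r = 0.853) and Cdc42ep3 (r = 0.858). Hcar2 was closest to Creld1, Sucnr1 to Snx4, Adora2a to Cd99l2 and Lgr4 to Fbxo45, with r between 0.893 and 0.922. Gpr3, with under 1 CPM on average, was not compared.

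Because the tissue was sequenced whole, fewer cells of a type and less RNA per cell cannot be told apart. Several of these receptors are also known from immune and vascular cells, so markers are given beside them. Of 12 macrophage markers 11 were tested, 1 was higher and none lower, and their sum ran from 79.2 to 111 CPM in cold and from 63.4 to 102.6 CPM in ctrl (difference of mean log2 CPM 0.24, exact two-sided permutation p = 0.0671, adjusted p = 0.336 over 10 lists). Of 10 neutrophil and mast cell markers 3 had enough reads to be tested, 1 of them lower, and the sum ran from 4.90 to 12.8 CPM in cold and from 8.51 to 35.03 CPM in ctrl (exact permutation adjusted p = 0.520). Ctrl 9, with the highest such sum, had the lowest Ffar2 level of the ctrl libraries. Cold 4, with the highest sum in cold, had the highest Ffar2 level of the cold libraries. The relation between that sum and Ffar2 was not tested. The 11 lymphocyte markers summed to at most 5.95 CPM in cold and 9.05 CPM in ctrl, and 9 of them did not have enough reads to be tested. No marker on any list was without reads. Fibroblast and adipocyte progenitor markers summed to 224 to 337 CPM in cold and 282 to 474 CPM in ctrl, and 5 of 10 were lower and none higher (difference of mean log2 CPM -0.17, exact permutation adjusted p = 0.520). Mature adipocyte markers, 2 of 10 higher and 2 lower, summed to 17300 to 24350 CPM in cold and 15860 to 19790 CPM in ctrl. Schwann cell and neuron markers summed to 115 to 138 CPM in cold and 96.7 to 173 CPM in ctrl, with none called. Endothelial markers, 1 of 10 higher and 2 lower, summed to 900 to 1060 CPM in cold and 827 to 1138 CPM in ctrl, mural markers to 656 to 900 CPM in cold and 765 to 885 CPM in ctrl. Skeletal muscle markers varied most, from 193 to 4622 CPM in cold and from 165 to 1529 CPM in ctrl, and with them as a covariate the log2 fold changes were -2.83 for Hcar1 and 1.55 for Lgr6. Brown adipocyte markers were higher in cold by 0.74 on the scale of mean log2 CPM (exact permutation adjusted p = 0.0217, p = 0.00217 before adjustment, the smallest the design allows), with 4 of 10 markers higher and none lower. That list includes Ppargc1a, at 316 ± 73.3 CPM in cold and 53.7 ± 8.60 CPM in ctrl. For this list, too, the number of brown adipocytes and their RNA per cell cannot be told apart, and neither was tested. The part of cell make-up in the receptor levels was not tested beyond the covariates named.

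**Figure D4:**
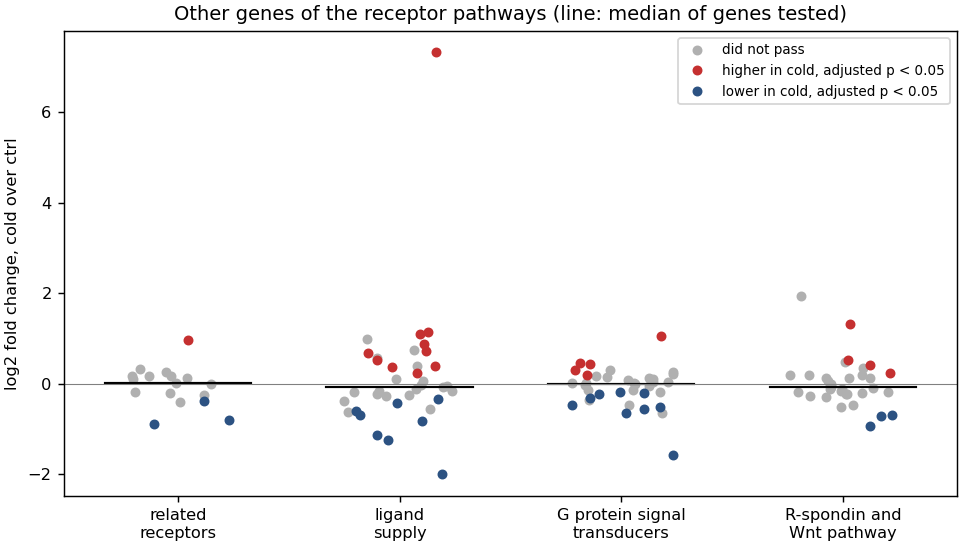
Log2 fold change, cold over ctrl, of the genes tested in 4 lists of other genes around these receptors; each point is a gene, red and blue points passed the edgeR test (adjusted p under 0.05), and the line is the median of the list. The point above 7 is Bdh1, which entered the test only through its cold libraries and had to differ. The list medians lie between -0.083 and 0.031.

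Most relatives of these receptors were hardly present. Of 50 listed receptors for other metabolites, nucleotides, protons and lipid mediators, 33 had too few reads to be tested, 7 of them none at all, including Gpr6 and Gpr12, the closest relatives of Gpr3, and Ffar3. Lgr5, Adora2b and Adora3 had 17, 27 and 17 reads over all libraries. Of the 17 tested, 1 rose and 3 fell, or 23.5% against 31.6% of all genes (median log2 fold change 0.031 against -0.0072 over all genes). S1pr5, a receptor for sphingosine 1-phosphate, rose to 17.7 ± 1.57 CPM in cold, against 9.06 ± 1.65 CPM in ctrl (log2 fold change 0.97 ± 0.11, adjusted p = 9.15e-06, edgeR). Its relative S1pr4 fell to 1.10 ± 0.229 CPM in cold, against 1.90 ± 0.380 CPM in ctrl (-0.79 ± 0.21, adjusted p = 0.00953, edgeR). S1pr3 of the same family fell to 12.3 ± 0.838 CPM in cold, against 16.0 ± 2.56 CPM in ctrl (-0.38 ± 0.10, adjusted p = 0.0117, edgeR). Ptger3, a Gi-coupled prostaglandin E2 receptor of adipocytes, fell to 20.8 ± 3.73 CPM in cold, against 38.1 ± 18.7 CPM in ctrl (-0.88 ± 0.28, adjusted p = 0.0324, edgeR). The groups overlapped for S1pr4, S1pr3 and Ptger3 and not for S1pr5. Ptger3 ranged in ctrl from 20.1 CPM in mouse 6 to 72.8 CPM in mouse 9. The nucleotide receptors P2ry1 and P2ry2 and the proton sensor Gpr4 were at 11.8 to 13.04 CPM in cold and 10.4 to 11.6 CPM in ctrl and did not pass the test.

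**Figure D5:**
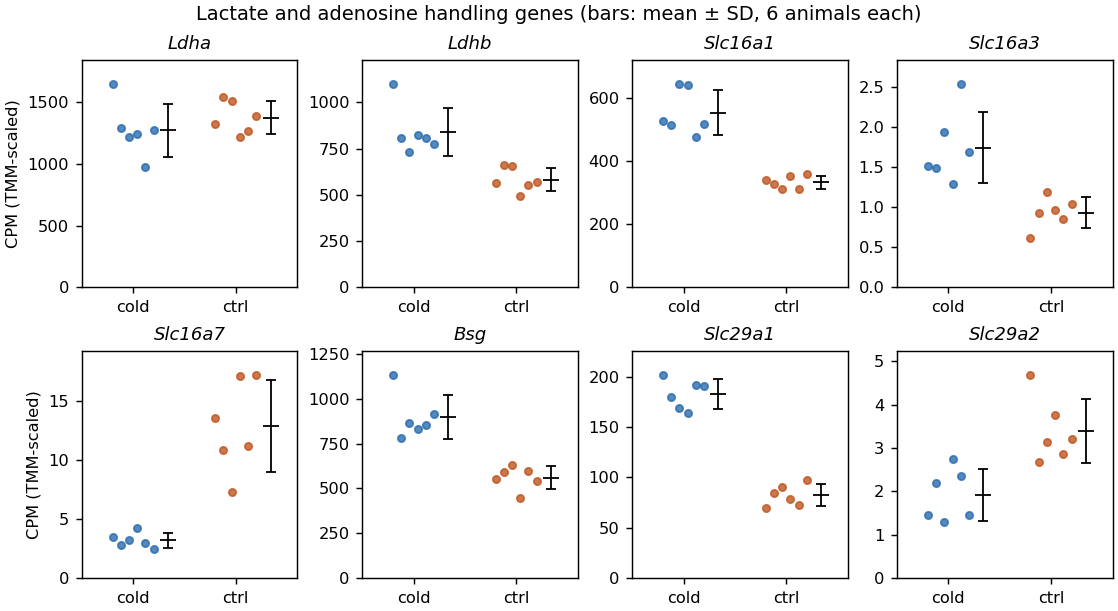
CPM of genes that make or carry lactate (Ldha, Ldhb, Slc16a1, Slc16a3, Slc16a7, Bsg) and carry adenosine (Slc29a1, Slc29a2) in each library, cold to the left of ctrl, with the mean ± SD of 6 animals. Ldhb, Slc16a1, Slc16a3, Bsg and Slc29a1 lie higher and Slc16a7 lower in all cold animals, and Ldha and Slc29a2 overlap.

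Genes that supply, remove or carry the receptors' ligands were called in 18 of 37 cases, 10 higher and 8 lower, or 48.6% against 31.6% of all genes (median log2 fold change -0.074). On the lactate side, where Hcar1 was lower, the monocarboxylate carrier Slc16a1 rose to 552 ± 71.1 CPM in cold, against 333 ± 20.1 CPM in ctrl (log2 fold change 0.73 ± 0.09, adjusted p = 1.20e-05, edgeR). Its chaperone Bsg rose by 0.68, Slc16a3 by 0.89 and Ldhb, a lactate dehydrogenase subunit, by 0.53 on the log2 scale. Ldha stood at 1275 ± 215.5 CPM in cold and 1377 ± 131 CPM in ctrl and did not pass. Another carrier, Slc16a7, fell to 3.19 ± 0.612 CPM in cold, against 12.9 ± 3.88 CPM in ctrl (-2.0 ± 0.20, adjusted p = 1.89e-06, edgeR), with no overlap between groups.

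For 3-hydroxybutyrate, the ligand of HCAR2, Bdh1, which interconverts it with acetoacetate, averaged 25.04 ± 19.3 CPM in cold and 0.156 ± 0.0978 CPM in ctrl. Single libraries ran from 13.6 to 62.7 CPM in cold and from 0.0616 to 0.327 CPM in ctrl. Like Gpr3 it entered the test only through its cold libraries and had to differ, so neither a fold change nor a p is given, although it is 1 of the 10 genes counted as higher. Oxct1, which uses ketone bodies, rose by 0.25 on the log2 scale. For acetate, which FFAR2 senses, the mitochondrial acetyl-CoA synthetase Acss1 rose to 356 ± 33.2 CPM in cold, against 167 ± 16.8 CPM in ctrl (1.09 ± 0.09, adjusted p = 2.17e-07, edgeR). The cytosolic Acss2 fell to 184 ± 28.0 CPM in cold, against 432 ± 189 CPM in ctrl. For succinate, none of the 4 succinate dehydrogenase subunits Sdha, Sdhb, Sdhc and Sdhd passed, with log2 fold changes between -0.22 and -0.07. Sdha was nevertheless lower in every cold library than in any ctrl library (1767 ± 93.5 CPM in cold, 1979 ± 91.2 CPM in ctrl, adjusted p = 0.0841, edgeR). The groups overlapped for Sdhb, Sdhc and Sdhd. Suclg2, a subunit of succinyl-CoA ligase, fell by 0.42 on the log2 scale.

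On the adenosine side the equilibrative transporter Slc29a1 had the smallest p of the list and rose to 183 ± 14.6 CPM in cold, against 82.2 ± 10.7 CPM in ctrl (1.15 ± 0.09, adjusted p = 1.42e-07, edgeR). Its relative Slc29a2 fell to 1.91 ± 0.592 CPM in cold, against 3.39 ± 0.737 CPM in ctrl. Of the enzymes that strip phosphates from extracellular nucleotides, Entpd1 rose by 0.40 and Entpd2 fell by 0.68, while Nt5e, which releases adenosine from AMP, was at 0.830 ± 0.336 CPM in cold and 1.28 ± 0.362 CPM in ctrl and did not pass. Adk and Ada, which remove adenosine, did not pass, and Ahcy, which forms it from S-adenosylhomocysteine, rose by 0.38. Among ligands of LGR4 and LGR6, Rspo1 was at 0.482 ± 0.161 CPM in cold, against 1.07 ± 0.245 CPM in ctrl (-1.13 ± 0.29). Cold 7 and cold 12, at 0.373 and 0.207 CPM, held under 10 Rspo1 reads. Its cold libraries alone would not have carried it into the test, so no p is given, although it is counted as lower. Rspo4 stood at 3.81 ± 1.98 CPM in cold and 2.30 ± 0.736 CPM in ctrl and did not pass, and Rspo2 and Rspo3 had too few reads to be tested.

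Downstream of the receptors, 14 of 36 tested genes for G protein subunits, arrestins, receptor kinases and RGS proteins were called, 5 higher and 9 lower, or 38.9% against 31.6% of all genes (median log2 fold change -0.0031). Without cold 4 the count was 22. Rgs2, which speeds the shut-off of G proteins, rose to 73.5 ± 19.5 CPM in cold, against 35.3 ± 8.59 CPM in ctrl (1.06 ± 0.19, adjusted p = 7.36e-04, edgeR). Rgs5, also a marker of mural cells, fell to 191 ± 24.0 CPM in cold, against 297 ± 23.9 CPM in ctrl (-0.64 ± 0.09, adjusted p = 5.81e-05, edgeR). Of the 10 mural markers, Rgs5 included, 3 were lower and none higher. The gamma subunit Gng7 fell to 1.87 ± 0.628 CPM in cold, against 5.48 ± 1.24 CPM in ctrl (-1.56 ± 0.23, adjusted p = 7.22e-05, edgeR), and the beta subunit Gnb2 to 149.9 ± 20.7 CPM in cold, against 213 ± 13.8 CPM in ctrl (-0.51 ± 0.09, adjusted p = 3.53e-04, edgeR). Of the alpha subunits, Gna13 rose by 0.43, Gna12 by 0.20 and the Gs gene Gnas by 0.30, whereas the Gi gene Gnai2 fell by 0.23 and Gna11 by 0.17. The groups overlapped for Gnas, Gnai2 and Gna11 and not for Gna13 and Gna12. The other Gi and Go genes Gnai1, Gnai3 and Gnao1 had log2 fold changes of 0.18, 0.09 and 0.30 and did not pass.

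In the R-spondin and Wnt list 4 of 33 tested genes rose and 3 fell, or 21.2% against 31.6% of all genes (median -0.083). Without cold 4 the count was 13. The co-receptor Lrp5 rose to 86.2 ± 13.2 CPM in cold, against 60.3 ± 5.63 CPM in ctrl (0.52 ± 0.10, adjusted p = 0.00107, edgeR), and the kinase Gsk3a by 0.41 (adjusted p = 2.59e-04, edgeR). The receptor Fzd1 fell to 10.3 ± 1.17 CPM in cold, against 16.5 ± 1.65 CPM in ctrl (-0.68 ± 0.10, adjusted p = 6.20e-05, edgeR), and Dvl2 by 0.94 (adjusted p = 0.00593, edgeR). Axin2, a common target of Wnt signalling, stood at 29.4 ± 2.56 CPM in cold and 25.7 ± 5.01 CPM in ctrl and did not pass. Znrf3, the ubiquitin ligase that LGR receptors and R-spondins hold back, stood at 13.6 ± 2.59 CPM in cold and 10.6 ± 1.29 CPM in ctrl (adjusted p = 0.0523, edgeR), and Rnf43 had too few reads to be tested.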

How the data were processed

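Poly(A) RNA of brown fat from 12 mice was sequenced in pairs of 50 nt reads with strand-specific libraries, per the labels' protocols. Salmon, cutadapt, bcl2fastq and GRCm38 are named in the submitters' processing notes; their versions, the transcript annotation and the strand setting are not given in the sources used here. One deposited file per animal holds estimated counts per transcript, TPM and lengths (other values, in nt, per the file headers). The TPM deposited by the authors served only to weight effective lengths, because in ctrl 2 an outsized share (55.2%) fell on transcripts whose effective length was below 50 nt, against at most 8.41% in the other libraries. Of 140658 transcripts, 140137 matched GENCODE M21 by identifier without version; the other 521 held at most 0.152% of reads and were left out. Estimated counts were summed per gene, rounded, filtered with filterByExpr at a minimum count of 10 and given TMM scaling factors. The robust quasi-likelihood fit of edgeR compared cold with ctrl in a two-sided test, whose p-values were adjusted by Benjamini and Hochberg's method over all genes tested (threshold 0.05). The SE of a log2 fold change is its size over the square root of the F value. CPM are counts scaled to the TMM library size. Levels per kb use the read-weighted mean transcript length. Marker lists were compared by exact permutation of 6 against 6 animals (924 assignments) of the mean log2 CPM, with adjustment over 10 lists. Mouse numbers differ between groups, so animals were not paired. The members, lists and tests were chosen with earlier results of these data known. Named genes are the 10 members, the called genes of smallest p in each list (up to 4), called genes that act on a ligand, Ucp1, Ppargc1a and the closest genes by deviation; any other list gene was chosen with its values in view. Some list genes are counted but not reported here by name. The alternatives tried were RLE and library-total scaling, other filters (none, and a minimum count of 50), DESeq2, limma-voom, an effective length offset, muscle or macrophage markers or mouse numbers 2 to 7 against 9 to 16 as covariates, each of these 2 sets of animals alone, and libraries left out. Gene positions and RefSeq sequences are on GRCm38. Tools were R 4.3.3, edgeR 4.0.16, limma 3.58.1, DESeq2 1.42.0, Python 3.11.15, pandas 2.3.3, NumPy 2.4.6 and matplotlib 3.10.9.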

Additional observations from a re-analysis of the deposited data

Results flagged for a closer look

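In 40 sets of 6 values (10 receptor genes and 10 marker sums in each group), 6 had a highest value far from the rest by Dixon's criterion, which chance meets in about 1 in 20 sets. Cold 4, the deepest library, gave 4 of them: Hcar1 at 5.91 CPM, Ffar4 at 94.7 CPM, brown adipocyte markers at 17520 CPM and neutrophil and mast cell markers at 12.8 CPM. Without cold 4 the log2 fold change was -2.98 for Hcar1 and 0.90 for Ffar4, against -2.79 and 1.00 with it. The lymphocyte marker sum was high in cold 16 at 5.95 CPM and in ctrl 10 at 9.05 CPM.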

How the results depend on the processing

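The 24 or 25 alternatives run for each receptor gene kept the sign of all 10 log2 fold changes. No paired analysis was possible because the groups share no mouse number. Over single libraries left out, genes called higher numbered 2023 to 2605 and lower 1836 to 2481, and members called 8 to 9. List counts ran from 3 to 5 for related receptors, 16 to 21 for ligand supply, 10 to 22 for transducers and 6 to 13 for the Wnt list. With library totals, 1409 genes were lower and 2 related receptors were called. With the macrophage covariate 2 related receptors and 9 transducers were called, and the same 2 counts came without ctrl 2 and cold 15. Under the stricter filter 6 members were tested and 5 called. Effective lengths moved the levels per kb of Ffar4 (67.7 in cold, 33.9 in ctrl), Sucnr1 (0.743, 1.603) and Lgr4 (4.88, 3.60). Some log2 fold changes moved by more than the pooled SD of log2 CPM between animals of a group, all within the sets by mouse number. Gpr3 moved to 4.36 in mice 9 to 16, where the ctrl libraries held 0, 1 and 1 reads. Hcar2 moved to -1.18 and -2.68, and Sucnr1 to -0.63 and -1.45, in mice 2 to 7 and 9 to 16. Beside fewer animals, the cause was not tested. By more than their SE but less than that SD moved, among others, Ffar2 with the macrophage covariate (-1.68) and, in mice 2 to 7, Hcar1 (-2.43) and, in mice 9 to 16, Adora1 (0.22). The brown adipocyte marker difference stayed at 0.74 without ctrl 2 and cold 15, where 5 against 5 animals cannot pass after adjustment, and ran from 0.70 to 0.81 without single animals. That of macrophages ran from 0.17 to 0.31 and passed only without ctrl 10, at 0.31. Depth limits Gpr3, Hcar2, Ffar2 and Sucnr1 most.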
